A study of Mus musculus with 4 samples.

Results

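Glucocorticoid-responsive genes of liver cells are described here in mouse AML12 hepatocytes after knockdown of Topors. The 9 genes, of 52630 gene identifiers in the table, were taken by symbol as well-known hormone-responsive genes: Tsc22d3, Fkbp5, Sgk1, Klf9, Zbtb16, the metallothionein genes Mt1 and Mt2, and the C/EBP genes Cebpb and Cebpd. The shTopors group, 2 libraries, held cells infected with lentivirus that carries a short hairpin RNA against Topors, a ubiquitin and SUMO ligase gene. The shCtrl group, also 2 libraries, held cells infected with a control hairpin virus. AML12 is an immortal, non-tumorigenic hepatocyte line from a mouse transgenic for human TGF-alpha, so the results concern 1 cell line in culture. Cells of both groups grew in medium with 0.1 µM dexamethasone, a synthetic glucocorticoid, together with 10% fetal bovine serum and an insulin, transferrin and selenium supplement. The hormone was therefore present in all 4 libraries, and no library without it was compared. Each well received 200 µl of virus, cells were collected on day 5, and total RNA depleted of ribosomal RNA was sequenced with a strand-specific kit. The question put to the data was how transcript levels differ once Topors is lowered.

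When a glucocorticoid such as dexamethasone enters a cell it binds the glucocorticoid receptor, which leaves its Hsp90 chaperone complex, moves to the nucleus and switches genes on or off at its response elements. Hepatocytes are a classical target cell of this hormone, which acts there on fuel metabolism, on the acute phase response and on inflammation. Some of the genes it induces feed back on the pathway, among them Fkbp5, whose product lowers the receptor's affinity for hormone. Metallothioneins are small cysteine-rich proteins that bind zinc and copper, and their genes respond both to metals, through the factor MTF1, and to glucocorticoids. C/EBP beta and C/EBP delta are bZIP transcription factors of the liver acute phase response.

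The promoters of Mt1, Mt2 and Sgk1 are shown because letters of the DNA elements known for metal and hormone response were found in them. Of the 9 genes, 7 had a promoter in the RefSeq table of build GRCm38.p6, the assembly behind mm10, with 14 windows in all. Zbtb16 and Cebpd are named only. Each window ran from 250 bases before to 50 bases after an annotated start. The metal response element core was searched as TGCACNC or TGCGCNC and the full glucocorticoid response element as AGAACA and TGTTCT with any 3 bases between them, on both strands, with overlapping matches counted separately. The Mt2 window (chr8:94172368-94172667, plus strand) held 4 metal cores and the Mt1 window (chr8:94178839-94179138, plus strand) held 3. At least 3 such cores were found in 1.97% of all 32851 windows, and at least 4 in 0.517%. Of the 6 Sgk1 windows, that at chr10:21993640-21993939 (plus strand) held the full glucocorticoid element, at 21993701 to 21993715, and only 3 of all windows, 0.00913%, did so. The 250 bases before each start follow, 5′ to 3′, with the letters of the metal cores and of the full glucocorticoid element in capitals (GTGTGCA in Mt2 is a metal core on the other strand), and with a short stretch past the Mt1 start that holds its remaining cores; the last Mt2 core lies just past its start and is not printed.
Mt2: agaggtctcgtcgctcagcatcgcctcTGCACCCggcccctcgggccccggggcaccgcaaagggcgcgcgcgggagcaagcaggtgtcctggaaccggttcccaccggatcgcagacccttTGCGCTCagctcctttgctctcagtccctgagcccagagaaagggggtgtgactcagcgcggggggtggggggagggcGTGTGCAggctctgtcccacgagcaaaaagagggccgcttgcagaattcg
Mt1: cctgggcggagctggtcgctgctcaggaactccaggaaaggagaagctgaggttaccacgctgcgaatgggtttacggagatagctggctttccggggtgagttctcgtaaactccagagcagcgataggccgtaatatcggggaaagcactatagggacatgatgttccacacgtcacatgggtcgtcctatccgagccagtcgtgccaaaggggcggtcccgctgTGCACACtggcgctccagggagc
Mt1 past the start: cTGCACTCcgcccgaaaagTGCGCTCg
Sgk1: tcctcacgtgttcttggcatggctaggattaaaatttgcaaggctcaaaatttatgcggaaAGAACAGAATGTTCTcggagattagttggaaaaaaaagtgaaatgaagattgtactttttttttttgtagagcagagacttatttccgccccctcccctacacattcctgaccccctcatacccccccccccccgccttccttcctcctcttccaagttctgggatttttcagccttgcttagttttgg

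In GENCODE M21 the printed Sgk1 stretch lies within introns of longer Sgk1 transcripts and meets no exon. The printed Mt2 stretch lies in an exon of Gm45774, a gene on the opposite strand, and the last bases of the printed Mt1 stretch fall in the annotated 5′ UTR of Mt1. The shorter core ACANNNTGT of the glucocorticoid element, which also lies inside the full one, was found in the Mt1 window, in 2 of the 6 Sgk1 windows and in 6.85% of all windows. It was absent from the Mt2 window. The windows of Cebpb, Fkbp5, Klf9 and Tsc22d3 held none of the searched elements. At least 1 metal core was found in 25.7% of all windows. A match is a description of the letters, and binding was not measured.

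Topors itself stood at 4.31 and 4.65 TPM in the shTopors libraries, against 21.9 and 29.2 TPM in the shCtrl libraries, so the knockdown went with its label. Its log2 difference of -2.27 did not pass either (limma, adjusted p = 0.0823), and it overlaps Toporsos, annotated as a protein-coding gene on the opposite strand. The level unit, TPM, is scaled by length and library and does not carry sequencing depth, which is therefore unknown. Between 12928 and 13847 genes reached 1 TPM in a library. The tested genes numbered 13509, those with a mean of at least 1 TPM. Of these, 5 passed in limma's test at an adjusted p under 0.05, which is 0.037%, with 1 higher and 4 lower; after median-of-ratios scaling 1 passed, which was lower. On this scale the median log2 difference of all tested genes was -0.18, against -0.016 with that scaling, so differences are also given relative to that median. Separate cultures are not stated for the libraries of a group, and p-values then cover the spread between libraries alone, which may be technical. Hepatocyte genes were present but uneven: Hnf4a, a hepatocyte nuclear factor, was at 179 and 95.3 TPM in shTopors and at 158 and 156 TPM in shCtrl. Alb, the albumin gene, was at 4.15 and 402 TPM in shTopors and at 118 and 271 TPM in shCtrl. Ttr, the transthyretin gene, was at 195 and 410 TPM in shTopors and at 1119 and 2168 TPM in shCtrl (log2 difference -2.46, limma adjusted p = 0.129). It was the 1 tested hepatocyte marker of 8 with an unadjusted p under 0.05, beside 14.7% of all tested genes, 10.7% lower. The keratin gene Krt18 went the other way, at 3239 and 2168 TPM in shTopors and at 2069 and 1719 TPM in shCtrl. Apoa1, an apolipoprotein gene, was at 113 and 11.5 TPM in shTopors and at 12.3 and 28.4 TPM in shCtrl. Of the 8 tested hepatocyte markers, 5 lay above the median of all tested genes and 3 below it. Of the 10 hepatocyte markers, Tf was not matched and Apoa2 was below 1 TPM in every library. The bile duct marker Krt19 was at 1396 TPM in shTopors 1 and at 345 TPM in shTopors 2, against 341 and 296 TPM in shCtrl. Sox9, a bile duct factor gene, went the other way, at 26.9 and 42.1 TPM in shTopors and at 76.8 and 91.2 TPM in shCtrl (log2 difference -1.29, limma adjusted p = 0.176). The lists of 7 stellate cell, 6 endothelial and 6 leukocyte markers each summed to at most 1.38 TPM in any library, and none of them was tested.

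All 9 genes were expressed and tested, and none rose or fell past an adjusted p of 0.05, beside 0.037% of all tested genes, 0.0074% higher and 0.0296% lower. Tsc22d3, Fkbp5, Sgk1, Klf9 and Zbtb16 had lower group means in shTopors, by 1.19-fold to 1.97-fold. The metallothionein genes, which also respond to glucocorticoids, had higher ones, by 1.54-fold for Mt1 and 1.24-fold for Mt2. The median log2 difference of all tested genes was itself -0.18, and 6 of the 9 lay below it and 3 above. Cebpb had a mean 1.06-fold lower with overlapping groups, and Cebpd stood apart in 1 shTopors library. The adjusted p in limma's fit over all tested genes ranged from 0.324 for Tsc22d3 to 0.88 for Cebpb. At an unadjusted p under 0.05 there were 2 genes, Tsc22d3 and Zbtb16, both lower, beside 14.7% of all tested genes, 3.98% higher and 10.7% lower. The groups did not overlap for 4 of the 9 genes in the lower direction and for 1 in the higher direction, beside 35.2% and 14.6% of all tested genes, 49.8% in all. The median log2 difference of the 9 genes was -0.58, which is -0.40 relative to all tested genes. That relative median was -0.083 without shTopors 1, -0.17 without shTopors 2 and -0.22 without shCtrl 2. Taken library by library against the shCtrl mean, the median of the 9 genes relative to all tested genes was -0.17 in shTopors 1 and -0.083 in shTopors 2, and -0.084 and 0.084 in shCtrl 1 and shCtrl 2. The shTopors values are by construction those found with the other shTopors library left out, so they are no separate check. Without shCtrl 1, 0.0296% of all tested genes and none of the 9 passed, and without shCtrl 2 no gene did.

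**Figure D1:**
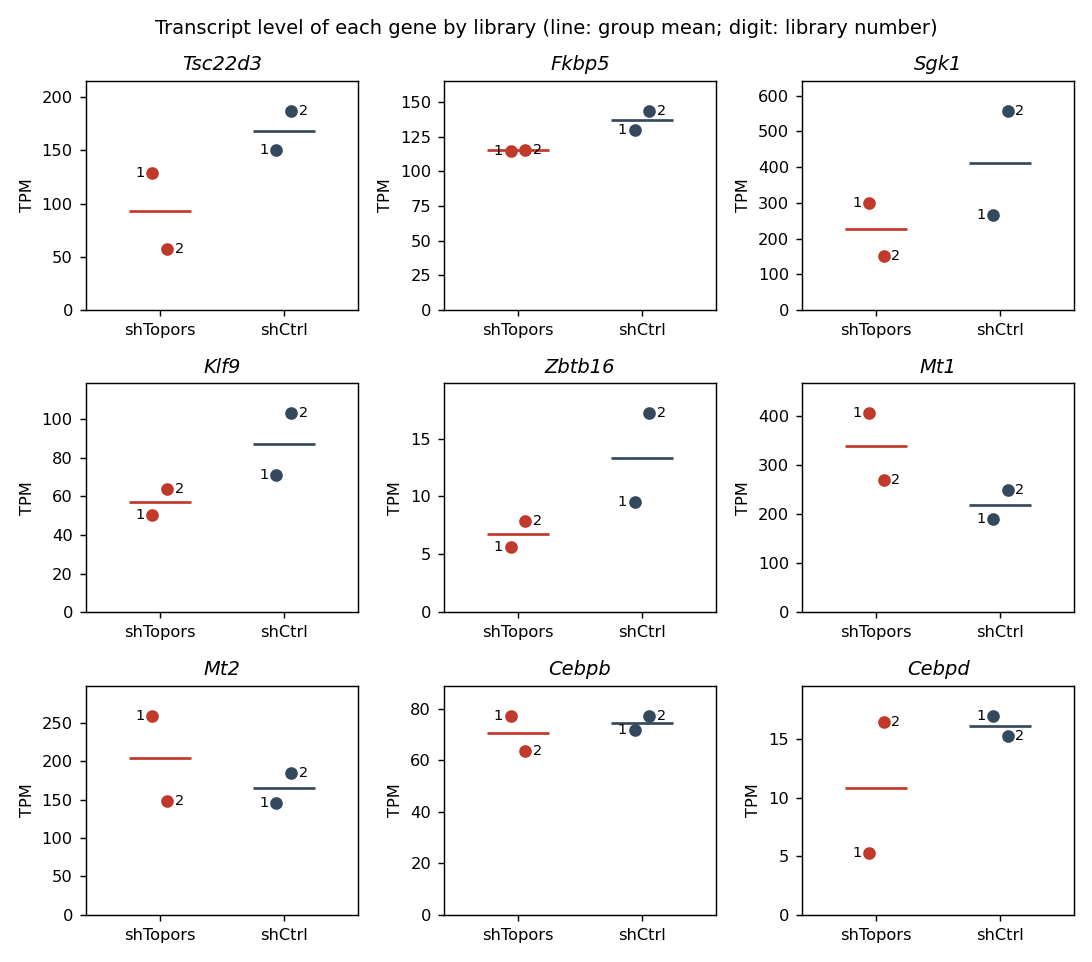
Transcript level in TPM (vertical axis, from 0) of each of the 9 genes in the shTopors and shCtrl libraries, with points for libraries 1 and 2 and a line at each group mean. Tsc22d3, Fkbp5, Klf9 and Zbtb16 were lower in both shTopors libraries than in both shCtrl libraries, Mt1 was higher, and Sgk1, Mt2, Cebpb and Cebpd overlapped.

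Tsc22d3 (ENSMUSG00000031431, chrX:140539528-140600659, minus strand, build mm10 as for the other genes) encodes GILZ, a leucine zipper protein that carries part of the anti-inflammatory action of glucocorticoids. It was at 129 and 57.3 TPM in the shTopors libraries and at 150 and 187 TPM in the shCtrl libraries. Both shTopors libraries were below both shCtrl libraries, with shTopors 1 close to shCtrl 1. The group means were 93.1 ± 50.7 TPM in shTopors and 169 ± 26.2 TPM in shCtrl (SD, n = 2 each), and the log2 difference was -0.95 (SE 0.39, 95% interval -1.86 to -0.044, limma adjusted p = 0.324). Without shTopors 1 the difference was -1.53 with an adjusted p = 0.000291, among 8.49% of all tested genes called in that fit. Without shTopors 2 it was -0.38 with an adjusted p = 0.412, and over 14 alternatives the adjusted p ran up to 0.988. RNA per cell and the share of cells that express a gene cannot be told apart in these bulk samples.

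Fkbp5 (ENSMUSG00000024222, chr17:28399094-28517527, minus strand) encodes FKBP51, the Hsp90 co-chaperone that restrains the receptor. It was at 115 and 116 TPM in shTopors and at 130 and 144 TPM in shCtrl. The shTopors libraries were almost equal and lay a little below both shCtrl libraries. The means were 115 ± 0.447 TPM in shTopors and 137 ± 9.80 TPM in shCtrl (SD, n = 2 each). The log2 difference was -0.24 (SE 0.22, 95% interval -0.77 to 0.28, limma adjusted p = 0.626), or -0.059 relative to all tested genes, the smallest distance from that median among the 9.

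Sgk1 (ENSMUSG00000019970, chr10:21882184-21999903, plus strand) encodes a serum- and glucocorticoid-induced kinase that acts on ion channels, transporters and FOXO factors. It was at 299.8 and 152 TPM in shTopors and at 267 and 557 TPM in shCtrl. The groups overlapped, since shTopors 1 was above shCtrl 1, and shCtrl 2 stood far above the rest. The log2 difference was -0.85 (SE 0.43, 95% interval -1.87 to 0.17, limma adjusted p = 0.407). Without shTopors 1 it was -1.34, and without shTopors 2 it was -0.36. Without shCtrl 1 it was -1.38, and without shCtrl 2 it was -0.32. Over the 10 alternatives that keep all 4 libraries the limma adjusted p ran from 0.349 to 0.615.

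Klf9 and Zbtb16 are transcription factors induced by glucocorticoids. Klf9 (ENSMUSG00000033863, chr19:23141226-23168134, plus strand), a Krüppel-like factor, was at 50.4 and 63.9 TPM in shTopors and at 70.9 and 103 TPM in shCtrl. Its groups did not overlap, and the log2 difference was -0.58 (SE 0.28, limma adjusted p = 0.392), or -0.32 without shCtrl 2. Zbtb16 (ENSMUSG00000066687, chr9:48654297-48836222, minus strand), which encodes the BTB zinc finger protein PLZF, was at 5.68 and 7.90 TPM in shTopors and at 9.55 and 17.2 TPM in shCtrl. It was the least abundant of the 9, both shTopors libraries were below both shCtrl libraries, and the log2 difference was -0.84 (SE 0.36, limma adjusted p = 0.34). Without shTopors 2 the difference of Zbtb16 was -1.05, and without shCtrl 2 it was -0.45. Over the 10 alternatives that keep all 4 libraries its limma adjusted p ran from 0.205 to 0.514. The microRNA gene Mir1192 lies inside Klf9 on the same strand.

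Mt1 (ENSMUSG00000031765, chr8:94179082-94180327, plus strand) was at 406 and 271 TPM in shTopors and at 190 and 249 TPM in shCtrl. Both shTopors libraries were above both shCtrl libraries, although shTopors 2 and shCtrl 2 were close. The means were 338 ± 95.4 TPM in shTopors and 220 ± 41.8 TPM in shCtrl (SD, n = 2 each), and the log2 difference was 0.61 (SE 0.28, 95% interval -0.047 to 1.26, limma adjusted p = 0.372), or 0.79 relative to all tested genes. Without shTopors 2 the difference of Mt1 was 0.90, and without shTopors 1 it was 0.31. Over the 10 alternatives that keep all 4 libraries its limma adjusted p ran from 0.284 to 0.526. Mt2 (ENSMUSG00000031762, chr8:94172664-94173568, plus strand) was at 259 and 149 TPM in shTopors and at 145 and 185 TPM in shCtrl. Its groups overlapped, with shTopors 1 the highest and shTopors 2 between the shCtrl libraries. The log2 difference of Mt2 was 0.26 (SE 0.31, 95% interval -0.48 to 0.998, limma adjusted p = 0.706), and without shTopors 1 it was -0.14. Without shTopors 2 the Mt2 difference was 0.66, and it was 0.089 without shCtrl 1 and 0.43 without shCtrl 2.

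Mt1 and Mt2 lie side by side on chromosome 8 and were both highest in shTopors 1 and lowest in shCtrl 1. The ratio of Mt1 to Mt2 level was 1.57 and 1.82 in shTopors, against 1.31 and 1.35 in shCtrl. The ratios of the groups did not overlap, and a two-sided exact permutation test gave p = 0.333, the smallest that 2 against 2 libraries allow. Their annotated transcripts shared 0 stretches of 50 bases. Of the other protein-coding genes within 100000 bases, chosen by position, the nucleoporin gene Nup93 was at 31.9 and 27.9 TPM in shTopors and at 20.6 and 23.7 TPM in shCtrl. The log2 difference of Nup93 was 0.42 (SE 0.26, limma adjusted p = 0.479). Bbs2, a gene of the primary cilium, was at 5.92 and 9.22 TPM in shTopors and at 7.28 and 11.8 TPM in shCtrl, so its groups overlapped. The remaining metallothionein genes of the cluster, Mt3 and Mt4, were at 0.707 and 0.357 TPM in shTopors 1 and at 0.0518 TPM or less in the other libraries.

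Cebpb (ENSMUSG00000056501, chr2:167688915-167690418, plus strand) was at 77.2 and 63.6 TPM in shTopors and at 71.8 and 77.1 TPM in shCtrl. The shCtrl libraries lay between the shTopors libraries, and the log2 difference was -0.085 (SE 0.24, 95% interval -0.66 to 0.49, limma adjusted p = 0.88). Relative to all tested genes it was 0.098, so the sign of Cebpb depends on the scaling, and after median-of-ratios scaling its difference was 0.10. Cebpd (ENSMUSG00000071637, chr16:15887286-15891031, plus strand) was at 5.27 and 16.5 TPM in shTopors and at 17.0 and 15.2 TPM in shCtrl. Only shTopors 1 stood apart, while shTopors 2 lay between the shCtrl libraries. The log2 difference of Cebpd was -0.71 (SE 0.47, 95% interval -1.83 to 0.41, limma adjusted p = 0.504), and it was 0.032 without shTopors 1. Without shTopors 2 it was -1.45, and over the 10 alternatives that keep all 4 libraries the limma adjusted p ran from 0.401 to 0.687. Tmem189 overlaps Cebpb and Spidr overlaps Cebpd, each on the opposite strand, and the sources used here do not state whether strand was used in counting.

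**Figure D2:**
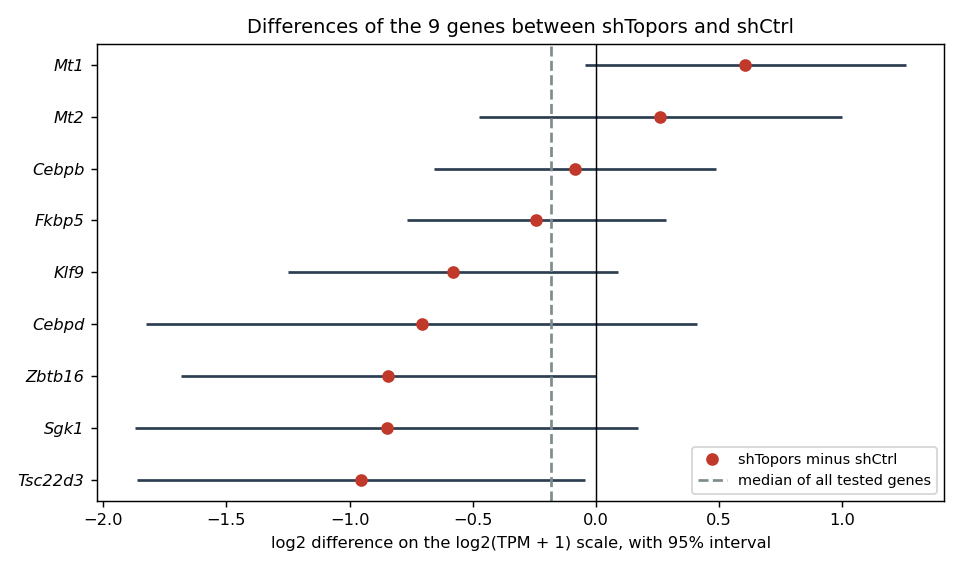
Log2 difference, shTopors minus shCtrl, on the log2(TPM + 1) scale (horizontal axis) for each gene, as points with 95% intervals from limma. Point estimates run from -0.95 for Tsc22d3 to 0.61 for Mt1, and the dashed line is the median of all tested genes at -0.18.

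Ordered by level per length, in TPM, the genes ranked differently in the 2 groups. In shTopors the order of mean levels was Mt1, Sgk1, Mt2, Fkbp5, Tsc22d3, Cebpb, Klf9, Cebpd and Zbtb16. The libraries of neighbours in that order overlapped except between Mt2 and Fkbp5 and between Klf9 and Cebpd. In shCtrl the order was Sgk1, Mt1, Tsc22d3, Mt2, Fkbp5, Klf9, Cebpb, Cebpd and Zbtb16. There the overlapping neighbours were Tsc22d3 with Mt2, Klf9 with Cebpb, and Cebpd with Zbtb16. By mean TPM over all 4 libraries, Sgk1 ranked 326 and Mt1 370 among the 13509 tested genes, and Cebpd ranked 7394 and Zbtb16 8376.

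In 5 of the 9 genes, Tsc22d3, Sgk1, Mt2, Cebpb and Cebpd, the shTopors libraries differed from each other by more than the groups did. How often this held among all tested genes was not counted, so whether it is particular to these genes is not known. Between shTopors 1 and shTopors 2 the log2 levels of Tsc22d3 differed by 1.16, and 7.80% of tested genes differed more. For Cebpd that difference was -1.48, with 3.91% of tested genes further apart, and for Sgk1 it was 0.98, with 11.4% further apart. The difference was 0.80 for Mt2 and 0.28 for Cebpb. Fkbp5 was the most even, with a difference of -0.0078 and 98.9% of tested genes further apart. Between shCtrl 1 and shCtrl 2 the largest difference was that of Sgk1, -1.06, with 2.04% of tested genes further apart, followed by Zbtb16 with -0.78. Over all tested genes the SD of this difference was 0.688 in shTopors and 0.429 in shCtrl. The 6 bile duct markers summed to 1891 TPM in shTopors 1 and 1091 TPM in shTopors 2, against 953 and 1414 TPM in shCtrl. Most of the sum in shTopors 1 came from Krt19, at 1396 TPM. Krt19 and Krt7 were highest in shTopors 1, Spp1, Sox9 and Cftr were lowest there, and Epcam was under 0.1 TPM in every library. Alb was lowest in shTopors 1. Of the 8 tested hepatocyte and 5 tested bile duct markers, Ttr and Sox9 were lower in both shTopors libraries than in both shCtrl libraries. Krt18 and Krt19 were higher. Among all tested genes 35.2% were lower and 14.6% higher without overlap. The part of these markers in the differences of the 9 genes was not tested.

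**Figure D3:**
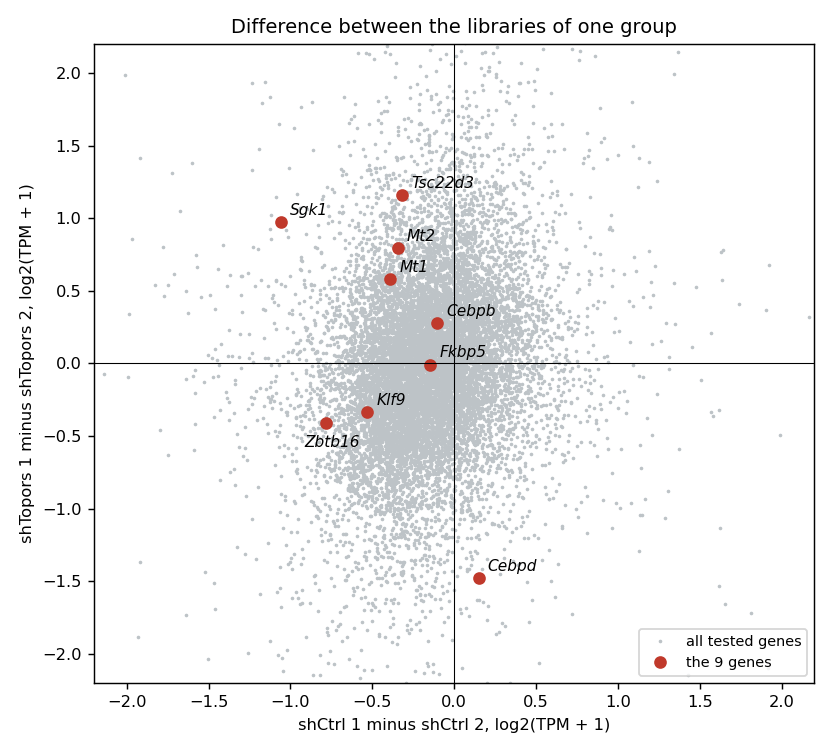
Difference in log2(TPM + 1) between the libraries of each group, shTopors on the vertical and shCtrl on the horizontal axis, for all tested genes (grey) and the 9 genes (red). Tsc22d3 and Sgk1 lie high and Cebpd low on the shTopors axis, Sgk1 lies furthest left, and 173 tested genes fall outside the axes, which end at 2.2.

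No gene for the receptor or its chaperones passed the test. Nr3c1, the glucocorticoid receptor gene, was at 22.8 and 21.7 TPM in shTopors and at 20.5 and 28.3 TPM in shCtrl. Both shTopors libraries lay between the shCtrl libraries, and the log2 difference was -0.11 (SE 0.28, 95% interval -0.77 to 0.55, limma adjusted p = 0.865). Nr3c2, the mineralocorticoid receptor gene, was at 4.99 and 3.33 TPM in shTopors and at 3.44 and 5.52 TPM in shCtrl. Of the 18 genes on the list of receptors, steroid-converting enzymes and chaperones, 16 were tested. None passed in either direction and none had an unadjusted p under 0.05, beside 0.037% and 14.7% of all tested genes. Their median difference was 0.18 above that of all tested genes. The smallest p was that of H6pd, which supplies NADPH to the enzyme that regenerates active glucocorticoid, at 209 and 213 TPM in shTopors and at 303 and 263 TPM in shCtrl (log2 difference -0.42, limma adjusted p = 0.412). Dnaja1, a co-chaperone, followed with a log2 difference of -0.54, and Hspa8, the constitutive Hsc70, was the most abundant member, at 1087 and 929 TPM in shTopors and at 822 and 953 TPM in shCtrl. The converting enzymes themselves, Hsd11b1 and Hsd11b2, were the 2 members below the filter.

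Other genes known to respond to glucocorticoids were mostly lower in shTopors, and none passed. Of 25 such genes, 19 were tested, 0 rose and 0 fell in limma's test, and 7 had an unadjusted p under 0.05, all lower, beside 10.7% of all tested genes. Both shTopors libraries were below both shCtrl libraries for 12 of the 19 and above them for 0, where 35.2% of all tested genes were lower without overlap. The list was chosen with earlier results of these data known, so its counts and median are a description only. Their median log2 difference was -0.66, or -0.48 relative to all tested genes, and 16 of 19 lay below the median of all tested genes. Taken library by library against the shCtrl mean, the median of these 19 genes relative to all tested genes was -0.90 in shTopors 1 and -0.93 in shTopors 2, and -0.25 and 0.25 in shCtrl 1 and shCtrl 2. The relative median of the fitted differences was -0.85 without shCtrl 1 and -0.36 without shCtrl 2. With a shTopors library left out it equals the value of the remaining shTopors library, -0.93 or -0.90, and is no separate check. Pik3r1, the regulatory subunit gene of phosphoinositide 3-kinase, had the smallest p, at 31.2 and 31.9 TPM in shTopors and at 75.7 and 94.6 TPM in shCtrl (log2 difference -1.40, SE 0.25, limma adjusted p = 0.13). Agt, the angiotensinogen gene, was at 1.12 and 6.04 TPM in shTopors and at 26.6 and 84.9 TPM in shCtrl, with a log2 difference of -3.66 (SE 0.68, limma adjusted p = 0.135). Tsc22d1, a relative of Tsc22d3 and the most abundant of the list, was at 402 and 735 TPM in shTopors and at 848 and 872 TPM in shCtrl. Picked once its values were known, the Krüppel-like factor gene Klf15, also induced by glucocorticoids, was at 18.8 and 17.1 TPM in shTopors and at 33.8 and 58.5 TPM in shCtrl (log2 difference -1.26, limma adjusted p = 0.208). The 6 genes below the filter were Tat, Tdo2, Pck1, G6pc, Igfbp1 and Crispld2, and Tat, the tyrosine aminotransferase gene often used as a hepatic glucocorticoid marker, was at 0.0399 and 0.242 TPM in shTopors and at 0.093 and 0.258 TPM in shCtrl.

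**Figure D4:**
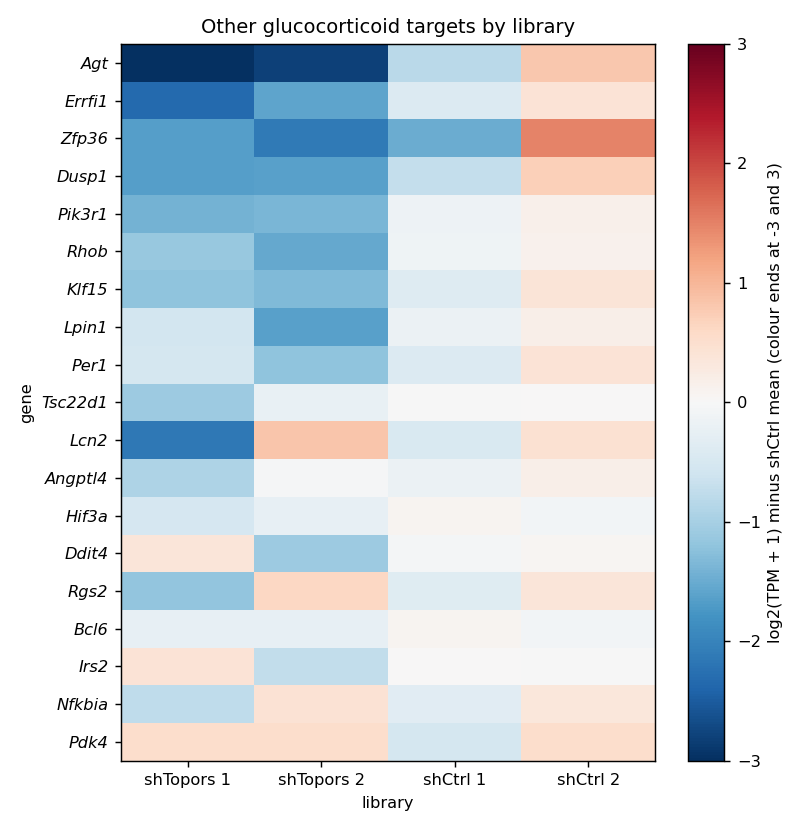
Colour map of log2(TPM + 1) minus the shCtrl mean for the 19 tested other glucocorticoid targets (rows, ordered by difference) in the 4 libraries (columns), with colours ending at -3 and 3. Agt, at the top, has the largest difference, -3.66, and 12 of the 19 genes are lower in both shTopors libraries than in both shCtrl libraries.

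**Figure D5:**
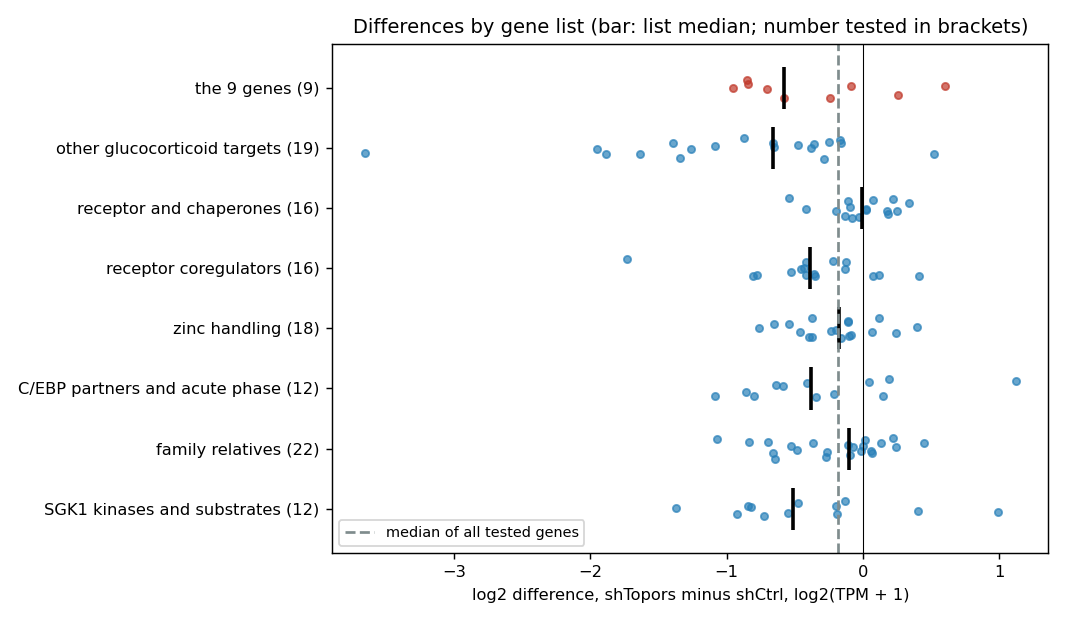
Log2 difference, shTopors minus shCtrl (horizontal axis), of every tested gene on each list, with the list median as a bar and the median of all tested genes as a dashed line. The bar for other glucocorticoid targets is at -0.66 and that for receptors and chaperones is close to 0.

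Among 16 coactivators and corepressors of the receptor, all were tested, 0 passed in either direction and 3 had an unadjusted p under 0.05, all lower, beside 10.7% of all tested genes. The groups did not overlap for 11, all lower, beside the 35.2% of all tested genes. Their median difference was -0.39, or -0.20 relative to all tested genes. Smarca2, a chromatin remodelling ATPase gene, was at 12.9 and 21.9 TPM in shTopors and at 46.9 and 72.6 TPM in shCtrl (log2 difference -1.73, SE 0.35, limma adjusted p = 0.159). Its alternative subunit Smarca4, the most abundant member, was at 109 and 67.1 TPM in shTopors and at 95.9 and 90.7 TPM in shCtrl, with overlapping groups. Ncoa1, the steroid receptor coactivator 1 gene, was at 5.01 and 4.4 TPM in shTopors and at 8.32 and 9.66 TPM in shCtrl (log2 difference -0.81, limma adjusted p = 0.272).

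Of 27 zinc handling genes 18 were tested, 0 passed in either direction and none had an unadjusted p under 0.05, beside 0.037% and 14.7% of all tested genes. Their median difference was 0.0080 above that of all tested genes. Mtf1, the metal-responsive factor gene, was at 9.0 and 11.2 TPM in shTopors and at 14.0 and 16.2 TPM in shCtrl. Both shTopors libraries of Mtf1 were below both shCtrl libraries (log2 difference -0.54, SE 0.28, limma adjusted p = 0.414), the opposite side to Mt1. Slc30a1, a zinc exporter gene and an MTF1 target, was at 9.04 and 14.3 TPM in shTopors and at 14.4 and 15.8 TPM in shCtrl. Slc39a14, a zinc importer gene induced in the acute phase, was at 43.8 and 34.7 TPM in shTopors and at 40.9 and 63.1 TPM in shCtrl. The smallest p was that of Slc30a7, which loads zinc into the Golgi (log2 difference -0.65, limma adjusted p = 0.389), and the most abundant member was Slc39a1, with a log2 difference of -0.24.

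Of the C/EBP relatives and acute phase genes, 12 of 20 were tested and 0 passed. At an unadjusted p under 0.05 there were 3, of which Cebpa and Ddit3 were lower and Saa3, picked once its values were known, was higher, beside 10.7% lower and 3.98% higher of all tested genes. Cebpa, the C/EBP alpha gene of differentiated hepatocytes, was at 8.05 and 11.6 TPM in shTopors and at 20.9 and 22.4 TPM in shCtrl (log2 difference -1.08, SE 0.29, limma adjusted p = 0.218). Ddit3, which encodes CHOP, a C/EBP partner that blocks DNA binding, was at 27.9 and 39.3 TPM in shTopors and at 61.4 and 60.4 TPM in shCtrl. Cebpg was at 31.7 and 42.4 TPM in shTopors and at 40.5 and 53.7 TPM in shCtrl, with overlapping groups. Crp, the C-reactive protein gene and the most abundant of the list, was at 47.4 and 202 TPM in shTopors and at 115 and 191 TPM in shCtrl. Crp and Cebpd were both lowest in shTopors 1, while Orm1 and Socs3 of this list were highest there, and a link to Cebpd was not tested.

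Of 12 genes for SGK1-activating kinases and SGK1 substrates, all were tested and 0 passed, while 4 lower and 1 higher had an unadjusted p under 0.05, beside 10.7% and 3.98% of all tested genes. Ndrg1, whose product SGK1 phosphorylates, was at 227 and 150 TPM in shTopors and at 412 and 561 TPM in shCtrl (log2 difference -1.37, SE 0.28, limma adjusted p = 0.162). Nedd4, a ubiquitin ligase gene related to the SGK1 substrate Nedd4l, was at 639 and 506 TPM in shTopors and at 235 and 348 TPM in shCtrl (log2 difference 0.99, SE 0.26, limma adjusted p = 0.215). Among 26 family relatives of the 9 genes, 22 were tested, 0 passed, and 2, Zbtb20 and Klf11, had an unadjusted p under 0.05, both lower, beside 10.7% of all tested genes. Zbtb20, a BTB zinc finger repressor gene of the liver, was at 18.1 and 34.3 TPM in shTopors and at 44.9 and 63.6 TPM in shCtrl. Klf13, the nearest relative of Klf9, was at 43.0 and 32.5 TPM in shTopors and at 41.6 and 38.6 TPM in shCtrl, with overlapping groups.

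The genes most like a member were found by the Euclidean distance of log2(TPM + 1) profiles, centred on the shCtrl mean, over the 4 libraries. Nearest to Sgk1 were Acsl1, a long-chain acyl-CoA synthetase gene (distance 0.221), Tor1aip1 (0.267) and the clock gene Per1 (0.280), which is itself a known glucocorticoid target. Per1 was at 14.3 and 8.53 TPM in shTopors and at 15.7 and 28.1 TPM in shCtrl. Nearest to Tsc22d3 were Soat1 (0.0717), Upk1b (0.128) and Bnip3l (0.161), and nearest to Mt1 were Gm10180 (0.0676), Timm8b (0.0823) and C330027C09Rik (0.0831). Nearest to Fkbp5 were Gm11400, Htt and Ddhd1, at distances of 0.0279 to 0.0313, and nearest to Cebpb were Gm14413, D10Wsu102e and Exoc8, at 0.0268 to 0.0296. With 4 libraries and 13509 genes such neighbours are a description only.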

How the data were processed

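RNA was measured in 4 libraries, 2 per group. The authors deposited 1 table of TPM per gene and library. Per the submitters' processing notes HISAT2, HTSeq, DESeq2, StringTie and the build mm10 were used, without versions or roles; the sources used here state neither which program wrote the TPM nor the strand setting. The deposited table held 52633 rows and 52630 identifiers, and 3 identifiers on 2 rows were summed. Coordinates are those of GENCODE M21 on mm10. TPM keeps no depth, so no counting interval was computed, and the number of libraries limits the precision.

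The limma package (3.58.1, R 4.3.3) was fitted to log2(TPM + 1) of the 13509 genes whose mean reached 1 TPM, using its mean-variance trend. The contrast was shTopors minus shCtrl, and p-values were adjusted over all tested genes with the Benjamini-Hochberg method at a threshold of 0.05. Fold changes on this scale understate the change of low genes. The steps were tested on simulated data.

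The genes and lists were chosen with earlier results of these data known. Named from each list were genes past the threshold, the 2 with the smallest p, the most abundant, and a few set by role; like patterns were sought for 5 of the 9 genes. Alternatives were other scalings, pseudocounts, filters, variance models, leaving out each library, and a replicate block. Promoters are from RefSeq (GRCm38.p6). Tables and figures were made in Python 3.11.15 with pandas 2.3.3 and matplotlib 3.10.9.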

Additional observations from a re-analysis of the deposited data

How the results depend on the processing

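None of the 9 genes passed under the 10 alternatives that keep all 4 libraries, nor without shCtrl 1 or shCtrl 2. The number past the threshold was 2 of 9 without shTopors 1 (Tsc22d3 and Sgk1) and 3 without shTopors 2 (Mt1, Cebpd and Zbtb16), where the lone library is assumed to vary like the other group, so with a library left out it ranged from 0 to 3. In those fits limma's prior degrees of freedom were 59.5 and 75.2, against 5.14 with all libraries. The share of all tested genes past the threshold was 8.49% without shTopors 1 and 16.0% without shTopors 2, against 0.037% with all libraries. With a lone shTopors library, the counts among the 9 genes are a description only and are not read as a result for these genes. Over all tested genes the count was 5, and 1 after median-of-ratios scaling, quantile normalization, rescaling without small RNAs, mitochondrial and the most abundant genes, or requiring a mean of 5 TPM, and 0 in limma's test with no filter on low values, where 2730 genes had an unadjusted p under 0.05. With a library left out it ranged from 0 (without shCtrl 2, where 694 had an unadjusted p under 0.05) to 2166 (without shTopors 2), and without shTopors 1 it was 1147. With the replicate number as a block, 33 genes passed and none of the 9. The correlation of same-numbered libraries' deviations was 0.20, and the labels do not say that a number marks a shared batch.

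The median difference of the 9 genes relative to all tested genes was -0.40, and -0.53 with no filter on low values; with a library left out it ranged from -0.37 to -0.083. For the 19 other glucocorticoid targets it was -0.48 and ranged from -0.93 to -0.36 with a library left out. The direction of Cebpb reversed after median-of-ratios scaling (0.10), quantile normalization (0.0093) and without shTopors 2, with a range of -0.22 to 0.053 over the libraries left out. Without shTopors 1, Cebpd and Mt2 reversed, with ranges of -1.45 to 0.032 and of -0.14 to 0.66. The other 6 genes kept their direction under all 14 alternatives. The cause of these changes was not tested. Depth is unknown, so how far it limits low genes such as Zbtb16 could not be measured.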
